A study of Oncorhynchus tshawytscha with 17 samples.

Results

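The hindgut of antibiotic-treated Chinook salmon (Oncorhynchus tshawytscha) was set against that of healthy controls over every gene of the deposited count table. All libraries labelled as antibiotic or healthy control were used, which were 11 of the 17 libraries of the series, and all 30221 genes with enough counts to be tested out of 42554 named genes. Antibiotic fish were diploid, received antibiotics for 10 days and were then killed at once in an excess of clove oil, and there were 5 of them. Controls were 6 healthy diploid fish with the same tissue label, hindgut epithelia. The other 6 libraries came from fish given probiotics and entered only the estimate of spread. Fish carry here the number and letter of their titles, after abx for antibiotic fish (67A, 67B, 67C, 91A and 91B) and ctl for controls (12A, 12B, 12C, 35A, 35B and 35C), as in abx67A and ctl12A. What the number stands for, whether the fish of a number shared a tank, and which antibiotics were given at which dose are not stated in the sources used here. The p-values set the difference between groups against the spread between fish, which was estimated over the 17 libraries. They treat each fish as independent, which fish sharing a tank would not be.

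In teleost fish the hindgut is the segment where enterocytes take up intact protein and other large molecules by endocytosis and break them down in very large lysosomes. Their apical face carries a receptor complex of cubilin, amnionless and the adaptor Dab2, and their lysosomes hold cathepsins and glycosidases. The same epithelium borders the gut microbes. Antibiotics reduce or change that community, and in mice such treatment is known to alter epithelial turnover, mucosal immunity and the handling of sugars and lipids. Some antibiotics also act on the ribosome of mitochondria, which is of bacterial descent. Gene lists on these themes, and lists of markers of other tissues, are described here. They were chosen with earlier results of these data known, so they were described and not tested.

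Library depth, the sum of counts over named genes, was 39.9 to 59.4 M (M, 1e6 counts) in antibiotic fish and 38.1 to 56.7 M in controls. Values below are CPM, the count scaled to 1e6 counts per library and normalised by TMM, with scaling factors of 0.897 to 1.06 over the 11 libraries. CPM are not divided by gene length, so they compare fish and not genes. Genes called abundant here are those high in CPM, which also rises with gene length. The endocytic receptor gene cubn averaged 4824 ± 620 CPM (SD) in the 5 antibiotic fish and 4826 ± 1130 CPM (SD) in the 6 controls. Between fish of 1 group the median SD of log2 CPM was 0.241 in antibiotic fish and 0.251 in controls, over the 11979 tested genes with a mean of at least 10 CPM. Since this is bulk tissue, fewer cells of a type and less RNA per cell cannot be told apart.

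Few genes separated the antibiotic from the control hindgut. The endosomal actin gene wash1 and the trehalase gene treh stood below every control in each of the 5 antibiotic fish, by 1.79-fold and 1.42-fold. A pair of neighbouring genes without a symbol, LOC112241820 and LOC112241821, stood above every control in each of them, by 2.59-fold and 2.19-fold. Of 30 tested genes of the lysosome-rich enterocyte, 1 (hexb) also lay below every control, where 86 of all tested genes (0.285%) did. Of 29 cell division genes 28 had a higher level in antibiotic fish, with wide variation between fish. Of 30221 genes, 0 (0%) passed edgeR's quasi-likelihood test at an adjusted p under 0.05, and the smallest adjusted p was 0.645. Unadjusted p was under 0.05 in 1877 genes (6.21%), of which antibiotic fish were higher in 1111 (3.68%) and lower in 766 (2.53%). Limma-voom called 0 genes, with 1689 at an unadjusted p under 0.05. DESeq2 called 26 genes (0.086%), 14 of them higher (0.0463%) and 12 lower (0.0397%), and had 2108 genes at an unadjusted p under 0.05. Left out singly, abx67A took the DESeq2 count to 12, ctl12B to 16, abx91A to 41, ctl35B to 45, ctl12C to 55 and abx67C to 75. The median log2 fold change over all tested genes was 0.02, and 53% of them lay on the higher side. Among the 11979 genes with a mean of at least 10 CPM, 79 had a fold change above 2 in either direction, 53 of them higher and 26 lower. Over all 11979 of these genes, the standard error of the log2 fold change had a median of 0.16. Of the 1624 genes with a mean of at least 100 CPM, 5 differed by more than 2-fold.

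**Figure D1:**
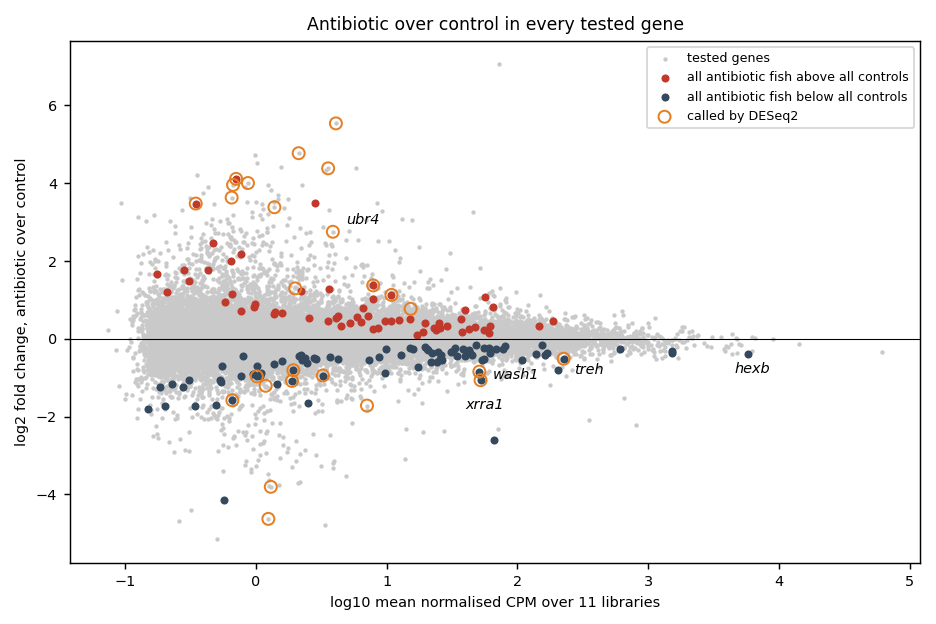
Log2 fold change, antibiotic over control, against the mean CPM (log10) of each of 30221 tested genes. Red and dark points are the genes in which all 5 antibiotic fish lay above (60) or below (86) all 6 controls, and orange rings mark the 26 genes called by DESeq2, 16 of which had a mean under 5 CPM in both groups.

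In 146 genes (0.483%) the ranges of the groups did not overlap. All 5 antibiotic fish lay above all controls in 60 of them (0.199%) and below in 86 (0.285%). Among this many tested genes some would separate the fish of these groups without any treatment effect. How many was not estimated, so the count by itself does not show an effect. With any 1 fish left out, which by itself allows more genes, the count was 196 to 536. Lower genes made up more of the abundant genes without overlap. Of 29 such genes with a mean of at least 50 CPM, 22 were lower and 7 higher in antibiotic fish. The share of lower genes among all tested genes at that level was not determined, so this split by itself does not show an effect. Of the 20 most abundant genes, with or without overlap, 15 were lower, counting cubn and LOC112249303, whose group means were nearly equal. Over all 146 genes the median absolute log2 fold change was 0.53, and 35 differed by more than 2-fold. Of the 26 genes called by DESeq2, 12 were without overlap, 16 had a mean under 5 CPM in both groups and 20 had no gene symbol. The 6 with a symbol were wash1, xrra1, treh, nppb, cfap58 and ubr4.

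The gene with the smallest p was wash1, which encodes the subunit of the WASH complex that switches on branched actin at endosomes, a step in the sorting of endocytosed cargo. It stood at 39.0, 33.7, 36.4, 37.0 and 32.2 CPM in abx67A, abx67B, abx67C, abx91A and abx91B, against 69.2, 48.1, 77.3, 84.2, 50.1 and 54.95 CPM in ctl12A, ctl12B, ctl12C, ctl35A, ctl35B and ctl35C. The antibiotic fish were close to each other and all lay below the lowest control. The level was 1.79-fold lower (log2 fold change -0.84 ± 0.16 SE), a difference that DESeq2 called (adjusted p = 0.00477) and edgeR did not (adjusted p = 0.645). With the index plate column of the libraries as a further factor, edgeR called it too (log2 fold change -1.04, adjusted p = 0.0460). Within column 12, wash1 averaged 34.3 CPM in 3 antibiotic fish and 80.8 CPM in 2 controls. Within column 9 it averaged 37.7 CPM in 2 antibiotic fish, counting abx67C, whose column was assumed, and stood at 69.2 CPM in 1 control. Columns 10 and 11 held no antibiotic fish but held ctl12B, ctl35B and ctl35C, the lowest controls for wash1. The columns that hold both groups thus held only the higher controls. The deposited table places wash1 at 31522460 to 31528039 of NC_037115.1, plus strand, and the build is not given in the sources. Probiotic fish, set against the same controls, averaged 55.3 ± 10.32 CPM (SD, n = 6).

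Other genes of the WASH complex, of retromer and of the sorting machinery around them lay on both sides. Of 31 tested members of that list, 15 lay on the higher side and the median log2 fold change was -0.0046. The members at an unadjusted p under 0.05 were 3 (9.68%, against 6.21% of all tested genes), all lower. One was wash1, around which the list was drawn up, a choice that by itself raises the share of 9.68%. The others were tbc1d5, which switches off the late endosome GTPase Rab7 and is bound by retromer, at 85.0 ± 11.44 CPM in antibiotic fish and 101 ± 7.45 CPM in controls, and the Rab32 and Rab38 partner ankrd27 (log2 fold change -0.43). The complex's own subunits washc3 and washc4 had log2 fold changes of 0.03 and 0.04.

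Among the other lower genes that DESeq2 called, treh encodes trehalase, the brush border enzyme that splits the sugar trehalose into glucose. It was at 143, 202, 196, 173 and 202 CPM in abx67A, abx67B, abx67C, abx91A and abx91B, against 264, 245, 243, 327, 227 and 260 CPM in ctl12A to ctl35C in the order above. All antibiotic fish were below all controls, 1.42-fold on average (log2 fold change -0.51 ± 0.12 SE, DESeq2 adjusted p = 0.0185, edgeR adjusted p = 0.698). For xrra1, a gene first linked to the response of cells to X-rays, the antibiotic fish were at 37.0, 31.7, 36.3, 29.3 and 29.3 CPM and the controls at 87.8, 75.7, 40.0, 57.5, 47.7 and 102 CPM. The controls spread widely and the antibiotic fish did not, and the highest antibiotic fish was just under the lowest control (log2 fold change -1.06 ± 0.23 SE, DESeq2 adjusted p = 0.0127, edgeR adjusted p = 0.698). The natriuretic peptide gene nppb, which codes for a hormone of salt and fluid balance, was scarce, at 0.157 to 0.564 CPM in antibiotic fish and 0.785 to 1.16 CPM in controls (log2 fold change -1.58 ± 0.36 SE, DESeq2 adjusted p = 0.0195, edgeR adjusted p = 0.698). Among cilium and flagellum genes, cfap58 overlapped between the groups, at 1.66 to 4.29 CPM in antibiotic fish and 2.69 to 20.8 CPM in controls, where ctl35B was as low as the antibiotic fish. None of these 4 calls was kept whichever fish was left out. DESeq2 kept treh in 6 of 11 fits that each omit 1 fish (lost without abx67A, abx91A, ctl12A, ctl35A or ctl35C), and it lost treh when the 11 libraries were fitted alone. It kept xrra1 in 7 of 11 (lost without abx91B, ctl12A, ctl12B or ctl35C), nppb in 4 of 11 (kept without abx67C, ctl12C, ctl35B or ctl35C) and cfap58 in 7 of 11 (lost without abx67A, abx91A, abx91B or ctl35C).

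**Figure D2:**
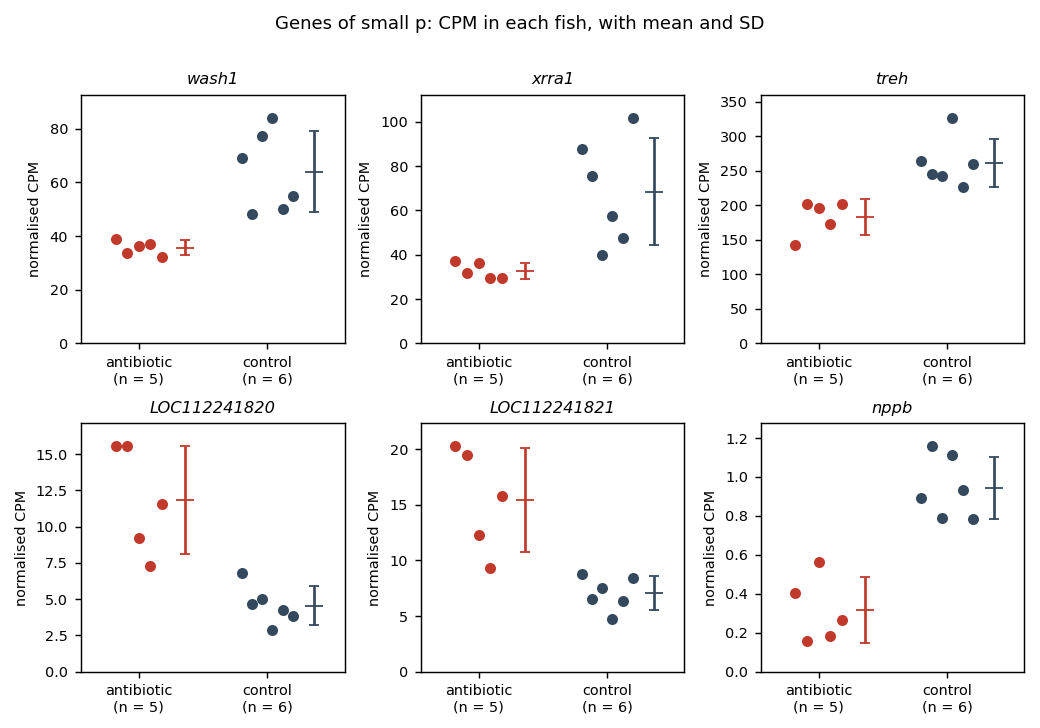
Normalised CPM of 6 genes called by DESeq2 in each of 5 antibiotic fish (red, left) and 6 control fish (dark, right), with the mean and SD beside the points. All antibiotic fish lay below all controls for wash1, xrra1, treh and nppb, and above all of them for LOC112241820 and LOC112241821.

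A further 5 lower genes without a symbol were called by DESeq2, 4 of them with all antibiotic fish below all controls. LOC112255867 had 0.999 to 1.30 CPM in antibiotic fish and 1.75 to 3.50 CPM in controls, and LOC112226994 had 1.15 to 1.46 and 2.12 to 3.08 CPM. LOC112251319 was at 1.77 to 2.49 CPM in antibiotic fish and 3.20 to 5.54 CPM in controls, and LOC112242443 at 0.593 to 0.764 and 1.15 to 1.46 CPM. In these 4 the groups did not overlap. In LOC112242128, with 0.535 to 0.886 CPM in antibiotic fish and 0.722 to 2.38 CPM in controls, 3 of 5 antibiotic fish lay below all controls. DESeq2 lost all 5 genes with the plate column as a factor, and LOC112242128 also in the 11 libraries alone. Of the 11 fits that each omit 1 fish, it kept LOC112226994 in 11 and LOC112255867 in 10. It kept LOC112251319 and LOC112242128 in 6 each and LOC112242443 in 4.

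Of the higher genes that DESeq2 called, LOC112241820 and LOC112241821 had all 5 antibiotic fish above all controls. They lie on scaffold NW_020131978.1 (plus strand) at 27697 to 34377 and 34479 to 37217, with 101 bases between them. LOC112241820 was at 15.6, 15.6, 9.20, 7.32 and 11.5 CPM in abx67A, abx67B, abx67C, abx91A and abx91B, against 6.77, 4.68, 4.98, 2.86, 4.26 and 3.82 CPM in the controls. LOC112241821 was at 20.3, 19.5, 12.29, 9.32 and 15.8 CPM in the same antibiotic fish, against 8.81, 6.50, 7.51, 4.74, 6.34 and 8.40 CPM in the controls. The antibiotic fish held the same order in both genes, apart from the tie of abx67A and abx67B in the first, and abx91A was nearest to the controls in both. The genes were 2.59-fold and 2.19-fold higher (log2 fold changes 1.37 ± 0.27 and 1.13 ± 0.22 SE), each at a DESeq2 adjusted p of 0.00618 and an edgeR adjusted p of 0.645. DESeq2 no longer called either gene with the plate column as a factor or without abx67A. Whether these neighbouring entries are separate transcripts was not tested. The probiotic fish, set against the same controls, averaged 11.5 ± 4.12 and 14.4 ± 3.59 CPM (SD, n = 6), near the antibiotic means of 11.8 and 15.4 CPM. Next, LOC112249106 was at 14.6 to 25.4 CPM in antibiotic fish and no higher than 15.1 CPM in controls, and only abx91A lay within the control range, below ctl35B (log2 fold change 0.77 ± 0.16 SE, DESeq2 adjusted p = 0.0117, edgeR adjusted p = 0.645), and its DESeq2 call was lost without abx67A, abx67B or abx91B.

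Most of the remaining higher calls were carried by some of the antibiotic fish. The gene ubr4 encodes a large ubiquitin ligase that marks proteins for degradation. It was at 6.16, 11.8, 9.25 and 7.88 CPM in abx67A, abx67B, abx67C and abx91B but at 1.02 CPM in abx91A, against 0.614 to 1.95 CPM in controls. Thus 4 of 5 antibiotic fish were above all controls and 1 was inside their range (log2 fold change 2.75 ± 0.59 SE, DESeq2 adjusted p = 0.00477, edgeR adjusted p = 0.698). LOC112248188 reached 19.3 and 23.6 CPM in abx67A and abx91A, with no more than 0.418 CPM in the remaining antibiotic fish and at most 0.555 CPM in controls. A different set of fish was high for LOC112246816, LOC112234485 and LOC112245791. Here abx67B had 9.44, 7.99 and 3.997 CPM and abx91B had 17.6, 11.9 and 4.45 CPM, against at most 0.576, 0.361 and 0.173 CPM in any control, and abx67C was high with them for LOC112246816 only (9.08 CPM). LOC112231356 was at 1.14 to 1.999 CPM in 4 antibiotic fish and at 0.0167 CPM in abx91B, with at most 0.247 CPM in controls. LOC112220969 was led by abx91A (9.02 CPM) and abx67B (3.35 CPM), and LOC112234510 by abx67A (3.78 CPM) and abx91A (2.48 CPM), against control maxima of 0.345 and 0.148 CPM. With single fish left out, DESeq2 kept LOC112220969 in 9 of 11 fits and LOC112234510 in 3 of 11. It lost LOC112234510 in the 11 libraries alone and with the plate column as a factor.

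For LOC112259970 and LOC112216100 all 5 antibiotic fish lay above all controls, at 0.182 to 1.57 CPM against 0.0227 to 0.113 CPM, and at 0.196 to 3.29 CPM against 0.0226 to 0.148 CPM. Of the 11 fits that each omit 1 fish, DESeq2 kept LOC112259970 in 8 and LOC112216100 in 1. It lost both when the 11 libraries were fitted alone, and LOC112259970 also with the plate column as a factor. LOC112243336 was at 1.25 to 3.90 CPM in antibiotic fish and 0.790 to 1.84 CPM in controls, with abx91A inside the control range. Its DESeq2 call was kept in 4 of 11 such fits and lost with the plate column as a factor. The reverse pattern, high in some controls only, held for 2 of the lower calls. LOC112234113 reached 5.42 CPM in ctl35C, 4.15 in ctl35A, 2.30 in ctl35B and 1.09 in ctl12A, with at most 0.147 CPM in antibiotic fish and 0.159 and 0.113 CPM in the other controls. LOC112258258 reached 8.48 CPM in ctl12C, 2.73 in ctl35B and 1.62 in ctl35C, with at most 0.234 CPM in antibiotic fish. Of the 25 genes with the smallest p, 3 were not called by DESeq2, all of them higher. LOC112226339 was at 29.0 to 50.7 CPM in antibiotic fish and 13.5 to 31.6 CPM in controls, with 4 of 5 fish above all controls, and LOC112251090 at 0.235 to 0.736 and 0.113 to 0.218 CPM, without overlap. In all, 4 of the 14 higher calls had all 5 antibiotic fish above the controls, and 8 of the 12 lower calls had all 5 below. The third of those not called held the largest single value of this kind. LOC112227924 stood at 783 CPM in abx91A, with no more than 1.56 CPM in the remaining antibiotic fish and at most 2.25 CPM in controls, and DESeq2 gave it no adjusted p.

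Among abundant genes without overlap, 3 of the lysosome were lower, by small differences. They were picked from genes already sorted for lack of overlap. Of 30 tested genes of the lysosome-rich enterocyte, 1 (hexb) had no overlap between the groups, against 0.483% of all tested genes. The most abundant of the genes without overlap was hexb, the lysosomal hexosaminidase subunit that trims sugars off glycoproteins and glycolipids. It stood at 5490, 4206, 5118, 5136 and 4890 CPM in abx67A, abx67B, abx67C, abx91A and abx91B, against 6459, 5902, 5825, 8268, 5705 and 6841 CPM in the controls. That was 1.31-fold lower (log2 fold change -0.39 ± 0.12 SE, edgeR adjusted p = 0.734). The lysosomal dipeptidyl peptidase gene ctsc was at 1311 to 1374 CPM in antibiotic fish and 1458 to 2011 CPM in controls, 1.24-fold lower (log2 fold change -0.32 ± 0.12 SE, edgeR adjusted p = 0.803). The antibiotic fish were nearly equal for it, with an SD of 26.6 CPM against 223 CPM in controls. The lysosomal phospholipase B-like gene plbd2 showed the same evenness, at 538 to 560 CPM in antibiotic fish and 571 to 819 CPM in controls (log2 fold change -0.26 ± 0.10, SE; adjusted p = 0.803 in edgeR). Naming genes for lack of overlap by itself favours those with little spread in a group. Over the 11979 tested genes with a mean of at least 10 CPM, the spread was alike in both groups (median SD of log2 CPM 0.241 and 0.251). None of these 3 lysosomal genes passed edgeR, voom or DESeq2.

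Other abundant genes below all controls had varied roles. The galactokinase gene galk1, whose product starts the use of galactose, was at 113 to 124 CPM in antibiotic fish and 136 to 186 CPM in controls (log2 fold change -0.40 ± 0.11 SE). The fatty acid amide hydrolase gene faah2b was at 74.0 to 98.0 CPM in antibiotic fish and 107 to 154 CPM in controls (log2 fold change -0.54 ± 0.14 SE). For slc5a6b, a transporter of biotin and pantothenate, the ranges were 43.3 to 60.6 CPM in antibiotic fish and 60.8 to 72.8 CPM in controls, so that abx91B and ctl35B nearly met. The endosomal receptor gene lrp10 differed least, at 140 to 153 CPM in antibiotic fish and 154 to 170 CPM in controls (log2 fold change -0.15 ± 0.10 SE). The intracellular cation channel gene tmem38b was at 98.4 CPM in abx67B and 147 to 166 CPM in the other antibiotic fish, against 168 to 207 CPM in controls. Of the genes without a symbol, LOC112231800 had 1262 to 1435 CPM in antibiotic fish and 1576 to 2063 CPM in controls, LOC112229908 had 128 to 149 and 151 to 235 CPM, and LOC112249348 had 62.1 to 205 and 219 to 311 CPM. The differences were small in LOC112231723, at 69.1 to 80.3 CPM in antibiotic fish and 80.8 to 91.4 CPM in controls, and in LOC112229518, at 66.99 to 72.96 CPM in antibiotic fish and 73.4 to 97.7 CPM in controls. The heme-regulated kinase gene eif2ak1, which slows translation when heme is short, was also lower in each antibiotic fish, at 32.4 to 37.6 CPM, than in each control, at 37.9 to 45.5 CPM (log2 fold change -0.25 ± 0.08 SE). None of these genes passed edgeR.

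**Figure D3:**
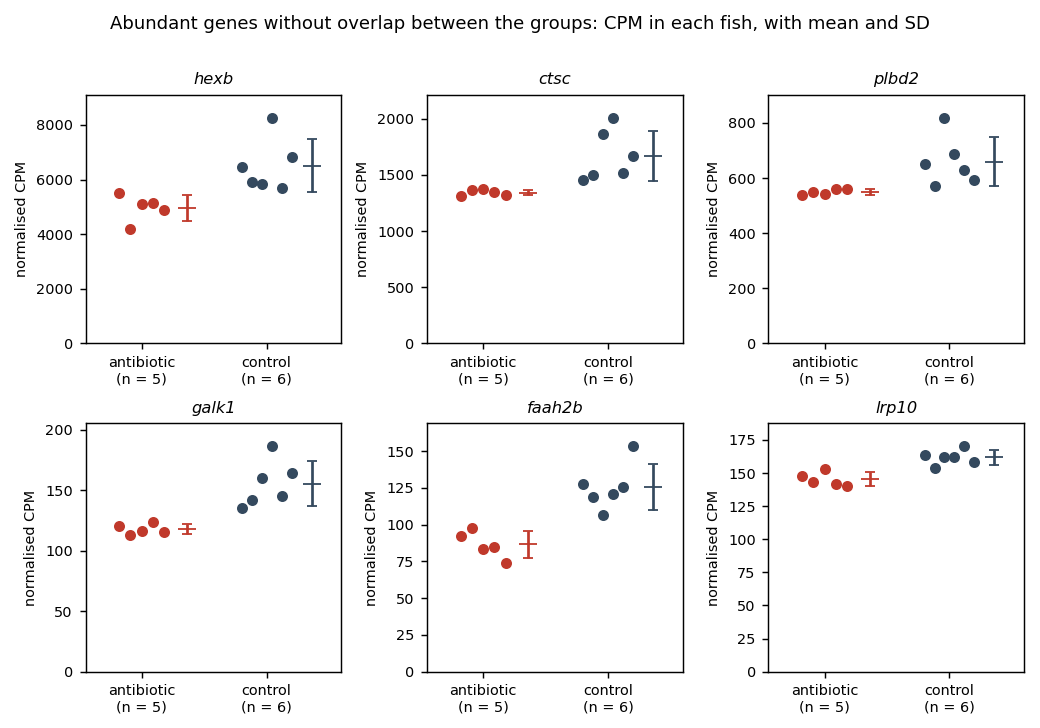
Normalised CPM of 6 abundant genes in each of 5 antibiotic fish (red, left) and 6 control fish (dark, right), with the mean and SD beside the points. All antibiotic fish lie below all controls in each panel, by 1.31-fold for hexb and 1.24-fold for ctsc, on axes that start at 0.

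On the higher side the abundant genes without overlap were fewer. LOC112239134 was at 200 to 260 CPM in antibiotic fish and 126 to 189 CPM in controls (log2 fold change 0.46 ± 0.17 SE). The gene si:ch211-222l21.1 was at 148 to 186 CPM in antibiotic fish and 120 to 145 CPM in controls (log2 fold change 0.33 ± 0.13 SE). The ribosomal protein paralog gene rpl22l1 was at 65.1 to 75.8 CPM in antibiotic fish and 43.4 to 64.3 CPM in controls, with ctl12B and ctl35C directly under the lowest antibiotic fish. The tetraspanin gene tspan14 had 56.2 to 66.0 CPM in antibiotic fish and 44.7 to 55.6 CPM in controls, and lrrfip2 had 61.1 to 66.5 and 55.8 to 60.7 CPM. None of these genes passed edgeR.

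Of the 35 genes without overlap that differed by more than 2-fold, 3 without a symbol are given here, chosen after their values were seen. LOC112261371 was at 10.57, 26.04, 16.46, 25.25 and 10.05 CPM in abx67A, abx67B, abx67C, abx91A and abx91B, against 40.4, 46.2, 188.5, 163.7, 69.5 and 130.3 CPM in ctl12A, ctl12B, ctl12C, ctl35A, ctl35B and ctl35C. The highest antibiotic fish was well under the lowest control, and the controls themselves spread widely (log2 fold change -2.59 ± 0.80 SE, DESeq2 adjusted p = 0.174, edgeR adjusted p = 0.746). LOC112226072 was at 71.3, 83.9, 94.4, 74.2 and 70.3 CPM in the antibiotic fish, against 42.3, 31.1, 47.5, 63.9, 13.0 and 26.6 CPM in the controls (log2 fold change 1.08 ± 0.35 SE, DESeq2 adjusted p = 0.321, edgeR adjusted p = 0.766). The scarce LOC112258265 was at 8.43, 5.57, 3.29, 7.25 and 3.85 CPM in the antibiotic fish, against 2.22, 0.114, 0.135, 0.272, 0.159 and 0.0523 CPM in the controls. Of the controls only ctl12A came near the antibiotic fish (log2 fold change 3.49 ± 1.03 SE, DESeq2 adjusted p = 0.179, edgeR adjusted p = 0.729), and without it the log2 fold change was 5.23. None of the 3 passed edgeR or DESeq2 with all 17 libraries.

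Beyond single genes, the lists describe how the epithelium's functions stood, read against all tested genes, of which 53% were on the higher side and 6.21% were at an unadjusted p under 0.05. Of 30 tested genes of the lysosome-rich enterocyte, 26 were lower and 4 higher in antibiotic fish, and their median log2 fold change was -0.13. At an unadjusted p under 0.05 were 2 of them, both lower, namely hexb and aga, which removes the link between sugar and asparagine in glycoproteins (20.98 to 24.97 CPM in antibiotic fish and 22.1 to 30.3 CPM in controls). The galactosidase gene glb1 was at 2877 to 3860 CPM in antibiotic fish and 3149 to 4913 CPM in controls, and the mannosidase gene manba at 66.8 to 104 and 85.4 to 143 CPM, with overlap in both. Among its endocytic receptor genes the log2 fold changes were -0.000789 for cubn, -0.04 for amn, -0.05 for lrp2b and 0.48 for lrp2, which was scarce (means of 0.562 CPM in antibiotic fish and 0.405 CPM in controls). The summed level of the list ran between 27100 and 34400 CPM in antibiotic fish and between 29500 and 41300 CPM in controls. Of the 20 genes with the highest CPM, a ranking that also depends on gene length, 15 were lower in antibiotic fish. Of these 15, 3 were at an unadjusted p under 0.05, and none of the 20 differed by more than 0.39 in log2. These 20 include 6 members of the lysosome-rich enterocyte list, all 6 lower, though cubn was level at 4824 against 4826 CPM. Of the 14 others 9 were lower, among them LOC112249303, also level at 8947 against 8956 CPM.

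Of 16 brush border hydrolase and structure genes 6 were higher, with a median of -0.08, and treh was the 1 member at an unadjusted p under 0.05. The lactase gene lct had a log2 fold change of -0.42 and the sucrase-isomaltase gene si one of 0.10. The microvillus bundler gene vil1 was at 1709 to 2338 CPM in antibiotic fish and 1225 to 2322 CPM in controls. Of 9 absorptive enterocyte markers 6 were higher (median 0.21, or -0.04 without abx67B) and 0 were at an unadjusted p under 0.05. Their median was also below 0 with the plate column as a factor (-0.046) and in limma-voom without (-0.024) and with the title number as a random block (-0.023). Of 13 sugar and amino acid transporters 7 were higher (median 0.01). The 1 at an unadjusted p under 0.05 was slc7a5, an exchanger of large neutral amino acids, at 34.0 CPM in abx67B, 19.3 CPM in abx91B and 5.68 to 9.96 CPM in the other antibiotic fish, against 3.63 to 11.6 CPM in controls. Of 18 genes of lipid absorption and bile acids 11 were higher (median 0.11, or -0.041 without abx67B), with 1 at an unadjusted p under 0.05, the bile acid and conjugate exporter abcc3 (0.270 to 1.64 CPM in antibiotic fish and 0.203 to 0.727 CPM in controls). Of 20 fatty acid oxidation genes 11 were higher (median 0.02), with 1 at an unadjusted p under 0.05, the peroxisomal enzyme ehhadh, which was lower, at 127 to 167 CPM in antibiotic fish and 148 to 243 CPM in controls.

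**Figure D4:**
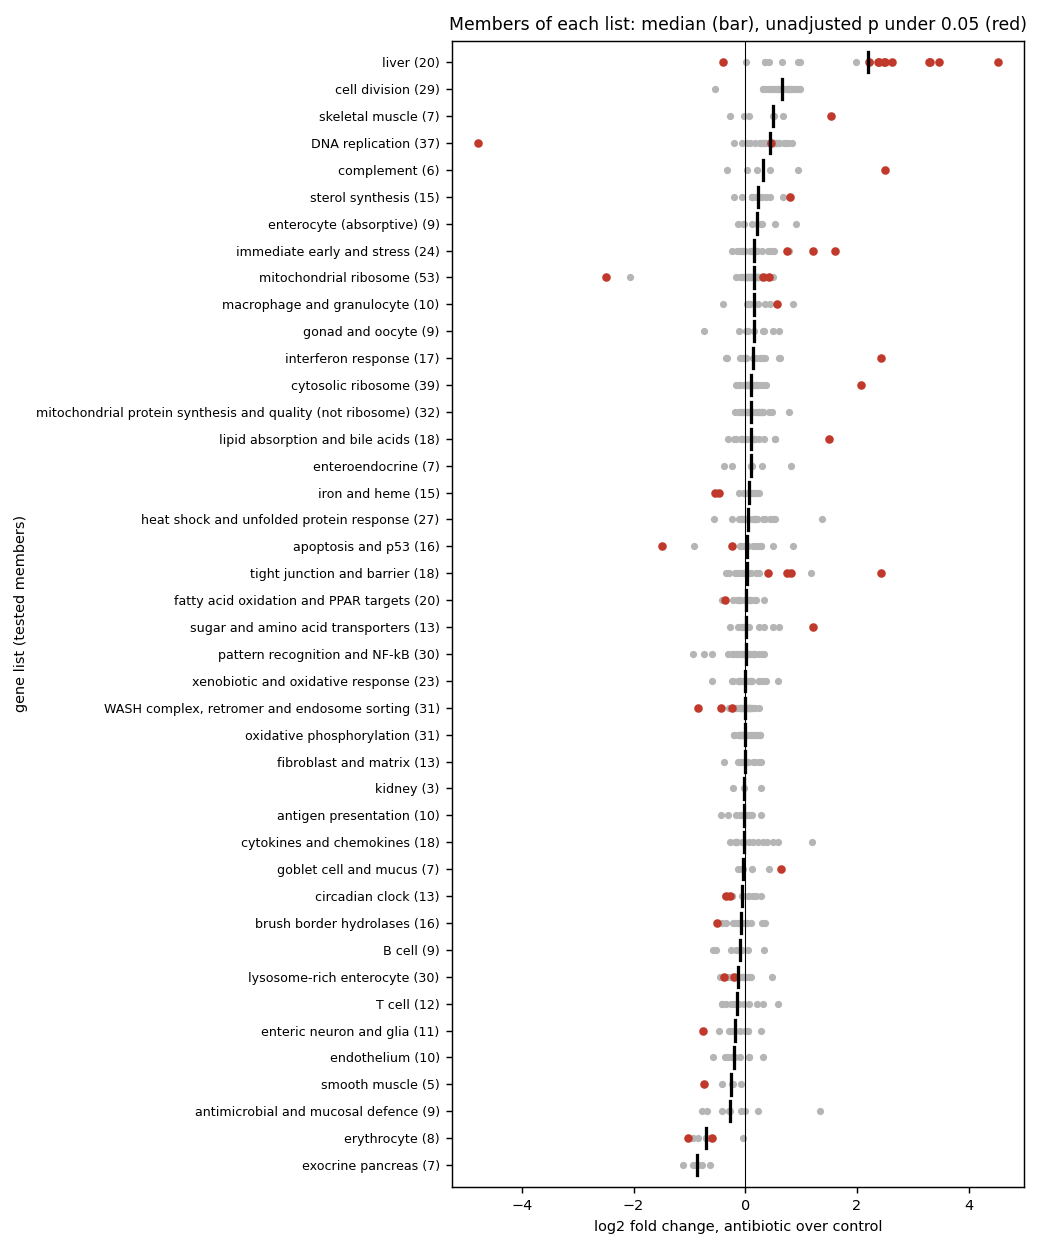
Log2 fold change, antibiotic over control, of the tested members of 42 gene lists, ordered by the list median (black bar), with members at an unadjusted p under 0.05 in red. The liver list, some of whose members were near the floor in controls, has the highest median (2.2), and the cell division list follows (0.65). Exocrine pancreas (-0.87) and erythrocyte (-0.70) markers lie lowest.

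Genes of proliferation were mostly higher in antibiotic fish but varied widely between fish. Of 29 cell division genes 28 were higher (median log2 fold change 0.65), and 0 were at an unadjusted p under 0.05 in edgeR. The only lower one was the checkpoint kinase gene bub1bb (-0.54). Their summed level was 1070, 1180, 676, 222 and 880 CPM in abx67A, abx67B, abx67C, abx91A and abx91B, against 554, 556, 970, 381, 192 and 394 CPM in ctl12A, ctl12B, ctl12C, ctl35A, ctl35B and ctl35C. So 2 antibiotic fish exceeded the highest control, while abx91A was near the lowest control. The proliferation marker mki67 followed this order, at 145, 183, 85.5, 19.4 and 125 CPM in the antibiotic fish and 15.8 to 114.7 CPM in controls. Of 37 DNA replication genes 34 were higher (median 0.45), with 2 at an unadjusted p under 0.05. The single-strand DNA binding subunit gene rpa1 was higher, at 27.1 to 46.7 CPM in antibiotic fish and 17.8 to 34.3 CPM in controls. The other, the folate enzyme gene dhfr, was lower only through ctl35C at 35.1 CPM, with 0.157 to 0.254 CPM in antibiotic fish and at most 0.237 CPM in the other controls.

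By title number, which is nested in treatment, the proliferation marker differed within both groups. For mki67 the mean was 138 CPM in the 3 fish of number 67 and 72.1 CPM in the 2 fish of number 91, and in controls 82.6 CPM in the 3 fish of number 12 and 32.4 CPM in the 3 fish of number 35. The numbers thus differed within controls about as much as the groups did. Beside it, wash1 averaged 36.4 and 34.6 CPM in numbers 67 and 91, against 64.9 and 63.1 CPM in numbers 12 and 35. For hexb the means were 4938 and 5013 CPM, against 6062 and 6938 CPM, and for treh 180 and 188 CPM, against 251 and 272 CPM. Within plate column 12 the means of 3 antibiotic fish and 2 controls were 4744 and 7046 CPM for hexb, 193 and 285 CPM for treh, 11.5 and 3.92 CPM for LOC112241820, and 109 and 79.6 CPM for mki67. Within column 9 the means of 2 antibiotic fish and the value of 1 control were 5304 and 6459 CPM for hexb, 170 and 265 CPM for treh, 12.38 and 6.77 CPM for LOC112241820, and 115.3 and 71.9 CPM for mki67. As every antibiotic fish lay on one side of every control for wash1, hexb, treh and LOC112241820, their direction within a column or number was fixed by that, and mki67 was the one gene here that could have differed. With the column as a factor the list medians were 0.41 for cell division, 0.26 for DNA replication, 0.028 for the mitochondrial ribosome, -0.067 for sterol synthesis and -0.26 for the lysosome-rich enterocyte.

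Ribosome genes were slightly higher in most cases. Of 53 mitochondrial ribosome genes 44 were higher (median 0.16, or 0.055 without abx67B), with 3 at an unadjusted p under 0.05. The higher ones were mrpl2, at 27.2 to 39.0 CPM in antibiotic fish and 21.1 to 33.3 CPM in controls, and mrpl28, at 24.4 to 39.4 and 23.0 to 32.0 CPM. The third, mrpl48, was lower through ctl12B at 6.27 CPM and ctl35A at 2.02 CPM. Of 32 other genes of mitochondrial protein synthesis and quality control 24 were higher (median 0.11, or -0.013 without abx67B), and of 31 oxidative phosphorylation genes 13 (median -0.01), with 0 at an unadjusted p under 0.05 in both lists. Of 39 cytosolic ribosomal protein genes 35 were higher (median 0.11, or 0.027 without ctl12A). The 1 at an unadjusted p under 0.05 was rps8a, at 31.2 CPM in abx91A, 2.11 to 3.10 CPM in the other antibiotic fish and 1.04 to 2.84 CPM in controls.

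Of 18 cell contact genes 4 were at an unadjusted p under 0.05, all higher in antibiotic fish, where 3.68% of all tested genes were. The list as a whole was level, with 10 of 18 higher and a median of 0.03. The desmosome linker gene dsp was at 447, 400, 303, 238 and 369 CPM in abx67A, abx67B, abx67C, abx91A and abx91B, against 211 to 301 CPM in controls, so that 4 fish lay above all controls and abx91A among them (log2 fold change 0.41 ± 0.16 SE, edgeR adjusted p = 0.803). The desmosome plaque protein gene ppl was at 137 to 262 CPM in antibiotic fish and 48.6 to 222 CPM in controls. The tight junction gene ocln was at 3.28 to 4.23 CPM in 4 antibiotic fish and 1.16 CPM in abx67B, against 1.02 to 1.82 CPM in 5 controls and 3.73 CPM in ctl35B. The plakophilin gene pkp2 was carried by abx91A (5.91 CPM) and abx91B (2.81 CPM), with at most 0.631 CPM elsewhere among the 11 fish. Of 7 goblet cell and mucus genes 3 were higher (median -0.04), and b3gnt7, which extends sugar chains on mucins, was at 3.68 to 6.83 CPM in antibiotic fish and 2.46 to 4.08 CPM in controls, with 4 of 5 fish above all controls.

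Genes of immunity differed in direction from list to list. Of 30 pattern recognition and NF-kB genes 15 were higher (median 0.01), of 18 cytokine and chemokine genes 8 (median -0.02), of 10 antigen presentation genes 5 (median -0.02), of 12 T cell markers 4 (median -0.14) and of 9 B cell markers 2 (median -0.09). None of these 5 lists had a member at an unadjusted p under 0.05 in edgeR. The gene cd3e, for a CD3 subunit of the T cell receptor complex, was at 17.6 to 27.8 CPM in antibiotic fish and 10.6 to 27.6 CPM in controls. Of 10 macrophage and granulocyte markers 9 were higher (median 0.16), with 1 at an unadjusted p under 0.05. This was mpeg1, the pore-forming perforin-2 of macrophages, at 43.9, 79.3, 51.9, 57.9 and 73.7 CPM in the antibiotic fish and 23.6 to 52.5 CPM in controls, with 3 fish above all controls. The complement starter gene c1qc was at 25.7 to 43.7 CPM in antibiotic fish and 16.0 to 33.2 CPM in controls. Of 9 genes of antimicrobial and mucosal defence 2 were higher (median -0.28) with 0 at an unadjusted p under 0.05, and the hydrogen peroxide source duox was at 57.3 to 237 CPM in antibiotic fish and 72.5 to 403 CPM in controls. Of 17 interferon response genes 11 were higher (median 0.13, or -0.06 without abx67B). The 1 at an unadjusted p under 0.05, the antiviral enzyme gene rsad2, was high in abx67B alone, at 27.2 CPM, with no more than 2.18 CPM in the remaining antibiotic fish and at most 2.38 CPM in controls. The interferon regulatory factor gene irf8 was also highest in that fish, at 28.8 CPM, against 6.06 to 9.73 CPM in the other antibiotic fish and 6.97 to 8.66 CPM in controls.

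Stress and signalling genes were high in a single fish as well. Of 24 immediate early and stress genes 16 were higher (median 0.16, or -0.03 without abx91B), with 3 at an unadjusted p under 0.05, egr1, fosl1 and dusp5, all of them highest in abx91B. The transcription factor gene egr1 was at 307 CPM in abx91B, at 29.4 to 49.3 CPM in the other antibiotic fish and at 23.9 to 58.9 CPM in controls. The cytokine signal inhibitor socs3 was at 297 CPM in abx91B, at 18.6 to 54.4 CPM in the other antibiotic fish and at 20.1 to 61.1 CPM in controls. The summed level of the list was 1770 CPM in abx91B, 601 to 935 CPM in the other antibiotic fish and 600 to 917 CPM in controls. Of 27 heat shock and unfolded protein genes 17 were higher (median 0.05), and of 23 xenobiotic and oxidative response genes 12 (median 0.00), with 0 at an unadjusted p under 0.05 in both. Of 16 p53 and apoptosis genes 10 were higher (median 0.03), and both members at an unadjusted p under 0.05 were lower, namely sesn2, a stress sensor that restrains TOR signalling (0.417 to 1.49 CPM in antibiotic fish and 0.938 to 4.55 CPM in controls), and mdm2, the ubiquitin ligase for p53 (23.1 to 31.8 and 27.7 to 37.1 CPM).

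In the clock and iron lists a few members stood out. Of 13 circadian clock genes 5 were higher (median -0.06), and 2 lower ones were at an unadjusted p under 0.05. One was arntl1b, a core activator of the clock, at 27.8 to 40.1 CPM in antibiotic fish and 36.8 to 46.9 CPM in controls, and the other was cipc (log2 fold change -0.34), which represses it. The hour of sampling was not given in the sources used here. Of 15 iron and heme genes 10 were higher (median 0.06), and 2 lower ones were at an unadjusted p under 0.05. The first enzyme of heme synthesis, alas1, was at 67.1 to 126 CPM in antibiotic fish and 84.3 to 194 CPM in controls, and the iron reductase gene steap3 at 5.04 to 7.71 and 7.05 to 12.5 CPM. Of 15 sterol synthesis genes 13 were higher (median 0.22). Without abx67B the median of this list was -0.06.

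Markers of tissues other than epithelium moved with some of the fish, and their part in the results above was not tested. Of 24 liver genes present in the data, 20 passed the filter on low counts and 19 were higher in antibiotic fish (median log2 fold change 2.2), and 11 were at an unadjusted p under 0.05, 10 of them higher. Most were highest in abx67C. The plasma protein gene fetub was at 0.593, 5.41, 27.9, 0.0455 and 1.69 CPM in abx67A, abx67B, abx67C, abx91A and abx91B, against 0.271 to 1.18 CPM in controls. The fibrinogen gene fgg was at 22.1 CPM in abx67C, at 1.11 to 5.19 CPM in the other antibiotic fish and at 0.965 to 2.34 CPM in controls. An exception was the coagulation factor gene f9, at 84.7 CPM in abx67B and no more than 2.17 CPM in the remaining antibiotic fish (0.902 to 4.95 CPM in controls). The complement gene c8a was nearly as high in abx91A (2.41 CPM) as in abx67C (2.65 CPM), with at most 0.476 CPM in controls. Without abx67C the median of the liver list was 0.45. Some members were near the floor in controls, such as hpxb (means of 2.13 CPM in antibiotic fish and 0.0902 CPM in controls) and plg (0.95 and 0.0847 CPM). Others were not, such as proc (19 and 14.8 CPM). Scarce genes may have passed the filter only through fish in which they were high. The number of higher members may partly follow from that, which was not tested. The list's summed level was 81.9, 185, 237, 72.8 and 91.9 CPM in the antibiotic fish and ranged between 81.9 and 126 CPM in controls, and its 1 lower member, the amino acid enzyme gene agxta, had 50.3 to 84.5 CPM in antibiotic fish and 59.9 to 110 CPM in controls.

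All 7 tested exocrine pancreas genes were lower in antibiotic fish, with a median of -0.87 and 0 at an unadjusted p under 0.05 in edgeR. Their summed level was 42.3, 38.1, 103, 17.1 and 28.7 CPM in abx67A, abx67B, abx67C, abx91A and abx91B, against 159, 104 and 159 CPM in ctl12A, ctl12B and ctl12C and 47.1, 27.5 and 24.6 CPM in ctl35A, ctl35B and ctl35C. The high controls were those of number 12, and abx67C, high for liver genes, was the highest antibiotic fish here. All 8 tested erythrocyte genes were lower too (median -0.70), with 2 at an unadjusted p under 0.05, slc4a1a and sptb. Their summed level was 36.4 to 68.0 CPM in antibiotic fish, 157 CPM in ctl12B and 46.4 to 60.8 CPM in the other controls, and without ctl12B the median was -0.20. All 5 tested smooth muscle genes were lower (median -0.25), with 1 at an unadjusted p under 0.05, the intermediate filament gene synm. Their summed level was 1150 to 2290 CPM in antibiotic fish, 3810 CPM in ctl35C and 1390 to 2110 CPM in the other controls, and without ctl35C the median was -0.08. Of 11 enteric neuron and glia genes 3 were higher (median -0.18), of 10 endothelial genes 3 (median -0.21) and of 13 fibroblast and matrix genes 6 (median -0.01), with 1, 0 and 0 at an unadjusted p under 0.05.

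**Figure D5:**
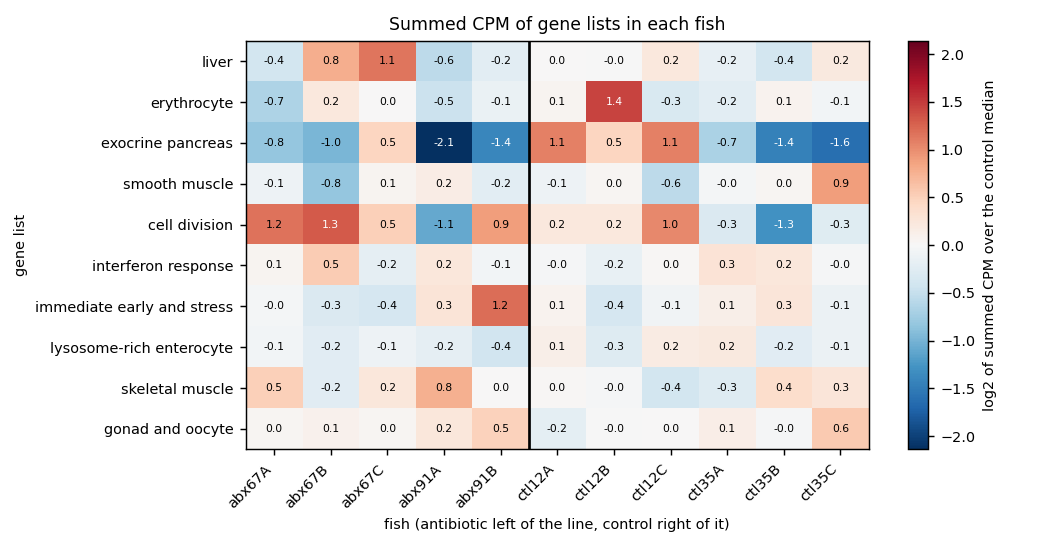
Summed CPM of 10 gene lists in each fish, as log2 of the ratio to the median control, with antibiotic fish left of the line and controls right of it. Single fish stand apart, among them abx67C and abx67B for liver genes, abx91B for immediate early genes, ctl12B for erythrocyte genes and ctl35C for smooth muscle genes.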

How the data were processed

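Total RNA of hindgut from 17 Chinook salmon was sequenced as paired-end reads on an Illumina NovaSeq, per the labels' protocols. The submitters' processing notes name Trimmomatic 0.38 for trimming, HISAT2 for alignment and featureCounts for counting. Other versions, the genome build, strandedness and the rule for multiply mapping reads are not stated there, so near-identical salmonid gene copies and overlapping genes may share or lose reads. The values the authors deposited are raw counts per gene. One entry without an identifier, which held 0.172 to 0.523% of counts in the 11 libraries, was left out.

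Symbols came from the table (4401 identifiers) and from a RefSeq gene table (assembly Otsh_v2.0), used for names only (6084 of 38153 LOC identifiers). Of the tested genes 21429 have no symbol and are in no list. No sequence was read for any gene.

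Genes kept by edgeR's filterByExpr were tested with the robust quasi-likelihood F-test, 2-sided, on TMM-scaled counts, fitted on the 17 libraries with group as sole factor, with Benjamini-Hochberg adjustment over 30221 genes. Standard errors were derived from the fold change and its F statistic. The plate column was read from the index names in the library titles. For abx67C an index name also held a well of column 12, the well named in the title of abx67B, and column 9 was assumed. DESeq2 gave no adjusted p to 208 genes. Gene lists were described and not tested. The fits were also run on simulated counts with known changes, and the outcome of that run is not given here. Genes named are the 25 with the smallest p, those called by DESeq2, the 15 most abundant without overlap, and list members of small p or high level. Further genes (eif2ak1, c1qc, lct, si, washc3, washc4, bub1bb, amn, lrp2b, LOC112261371, LOC112226072, LOC112258265 and other list members outside that rule) were chosen after their values were seen. The members, lists and rules were chosen with earlier results of these data known.

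Alternatives were RLE and upper-quartile scaling, no filter, a mean of at least 1 CPM, a fit of the 11 libraries, the plate column as a factor, limma-voom with and without the title number as a random block, DESeq2, and each fish left out. DESeq2 under some of these settings was added after the data were seen. Versions used were edgeR 4.0.16, DESeq2 1.42.0 and limma 3.58.1 under R 4.3.3.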

Additional observations from a re-analysis of the deposited data

Results flagged for a closer look

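In 31 of 234 groups of values (13.2%) 1 fish stood far from the rest of its group, by the gap to its nearest neighbour relative to the whole range. The cut used gives about 1 in 20 (5%) by chance only where values are normally distributed. It was applied to CPM not on a log scale, whose distribution was not tested, so the 5% is no firm reference here. Many of the genes were named for small p, so the share is not that of an arbitrary gene.

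Fish abx67B stood apart for steap3 (5.04 CPM, low), rsad2 (27.2 CPM, high), tmem38b (98.4 CPM, low), f9 (84.7 CPM, high) and irf8 (28.8 CPM, high). Fish abx67C stood apart, high, for the liver genes fetub (27.9 CPM), fgg (22.1 CPM), agxta (84.5 CPM) and fgb (14.4 CPM) and for the pancreas gene ela2 (27.9 CPM). Fish abx91A was high for LOC112227924 (783 CPM) and rps8a (31.2 CPM) and low for LOC112243336 (1.25 CPM). Fish abx91B was high for egr1 (307 CPM), socs3 (297 CPM), fosl1 (5.49 CPM) and the summed immediate early and stress list (1770 CPM).

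Among controls, ctl12B was high for mrpl48 (6.27 CPM), fgg (2.34 CPM), slc4a1a (43.4 CPM) and the summed erythrocyte list (157 CPM). Control ctl12A was high for LOC112258265 (2.22 CPM). Control ctl12C was high for fosl1 (1.53 CPM) and LOC112258258 (8.48 CPM), and ctl35A for treh (327 CPM). Control ctl35B was high for LOC112249106 (15.1 CPM), ocln (3.73 CPM) and dusp5 (16.6 CPM), and ctl35C for dhfr (35.1 CPM), f9 (4.95 CPM) and the summed smooth muscle list (3810 CPM).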

How the results depend on the processing

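With edgeR 0 genes were called under each normalisation, each filter, the fit of the 11 libraries, both voom fits and every single fish left out, and 1 (wash1) with the plate column as a factor. DESeq2 called 26. At an unadjusted p under 0.05 there were 1371 (without ctl35C) to 2635 (without ctl12C) genes when single fish were left out, and 1403 to 2812 under the other settings. The calls of DESeq2 were less stable. They numbered 42 in the 11 libraries alone (19 shared with the 26), 42 with the plate column (12 shared), 68 without abx67C and abx91B (13 shared) and 12 (without abx67A) to 75 (without abx67C) with single fish left out. Its calls of wash1, LOC112226994, LOC112234113 and ubr4 were kept with each of the 11 fish left out, but LOC112226994 was lost with the plate column and LOC112234113 in the 11 libraries alone. Genes without overlap numbered 146 with TMM, 142 with RLE scaling, 151 on raw totals, 114 at a mean of at least 1 CPM, and 196 to 536 with a fish left out, where fewer fish alone allow more.

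Of 107 genes followed, 100 kept their direction in every alternative and 7 reversed, each without the fish that carried it. With single fish left out the log2 fold change of dhfr ran between -5.05 and 0.17 (without ctl35C). Without abx67B it reached -0.41 for rsad2, -0.53 for f9 and -0.0424 for irf8, with highest values of 2.75, 3.87 and 0.76. It was -0.19 for LOC112227924 without abx91A (highest 7.37), and -0.0302 for egr1 and -0.16 for socs3 without abx91B (highest 1.44 for both). Of 42 list medians 33 moved by less than 1 control SD in every alternative. The sterol median was -0.06 and the interferon median -0.06 without abx67B, and the liver median ran between 0.45 and 2.6. In sign, 27 of the 42 medians changed under at least 1 alternative. Of the 42, 22 changed when single fish were dropped and 16 with the plate column as a factor. In the main fit all 27 were within 0.25 of 0. Some then lay further from it, as enteroendocrine at -0.26 without a filter and kidney at 0.76 with the plate column. With that column the medians of smooth muscle, enteric neuron and glia, and endothelium turned to 0.036, 0.059 and 0.098, and those of lipid absorption and of other mitochondrial protein synthesis to -0.064 and -0.062. No paired analysis was possible because the title numbers differ between the groups. With the number as a random block the correlation within numbers was 0.0404. At depths from 38.1 M counts (M, 1e6) scarce genes, under about 1 CPM, are least certain.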

Other observations

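The remaining lists added little. Of 9 gonad and oocyte genes 7 were higher in antibiotic fish, with a median log2 fold change of 0.15 (-0.047 without abx91B), a summed level of 16.0 to 22.0 CPM in antibiotic fish and 13.4 to 23.1 CPM in controls, and 0 at an unadjusted p under 0.05 in edgeR. Of 7 skeletal muscle genes 5 were higher (median 0.50, or 0.11 without abx91A), with summed levels of 17.1 to 34.2 CPM in antibiotic fish and 15.4 to 26.3 CPM in controls and 1 member, atp2a1 (log2 fold change 1.54), at an unadjusted p under 0.05. Of 6 complement genes 5 were higher (median 0.32, or 0.11 without abx67C), with 1 at an unadjusted p under 0.05, the terminal pathway gene c5 (2.87 CPM in abx67C and no more than 0.509 CPM in the remaining antibiotic fish, against at most 0.366 CPM in controls). Of 7 enteroendocrine genes 5 were higher (median 0.11), with 0 at an unadjusted p under 0.05.

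Of 3 tested kidney genes 1 was higher (median -0.02). That gene, slc12a1, an ion cotransporter that fish intestine also uses to take up salt, was abundant, at 252 to 1719 CPM in antibiotic fish and 306 to 1551 CPM in controls.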
